A study of Mus musculus with 6 samples.

Results

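The constitutive proteasome genes were taken from the deposited mouse gene table as every symbol that starts with Psma, Psmb, Psmc or Psmd followed by a digit, without the immunoproteasome genes Psmb8, Psmb9 and Psmb10. This gave 37 of the 22048 genes in the table, 16 of them Psma or Psmb and 21 Psmc or Psmd. The table held RNA-Seq profiles of neural stem/progenitor cells (NSC/NPCs) from the hypothalamus of male C57BL/6 fetuses at E14.5. In the high estradiol group (HE, n = 3) pregnant dams of 8 weeks had received estradiol valerate by gavage at 100 μg/kg/d from E5.5 to E11.5, and in the control group (NC, n = 3) the dams had received the corn oil vehicle, although the sample labels call these cells untreated. All 6 samples were neurospheres grown in EGF and bFGF, each at 10 ng/ml, harvested at first passage and drawn from 2 mice per sample, so that they show cells selected by culture and not the hypothalamus itself.

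The proteasome degrades proteins that carry a ubiquitin chain. Its 20S core is a barrel of 4 stacked rings: the outer α rings (Psma genes) gate the entrance, and the inner β rings (Psmb genes) hold the proteolytic sites of the catalytic subunits Psmb5, Psmb6 and Psmb7. The 19S cap binds and unfolds the substrate. The cap's base contains a ring of ATPases (Psmc genes) and non-ATPase subunits, and its lid contains the deubiquitinase Psmd14. In mammalian cells the transcription factor NRF1, encoded by Nfe2l1, is known to raise many proteasome genes together when proteasome activity is short, through antioxidant response elements bound with small Maf proteins.

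By role, 14 members were core subunits: the α ring genes Psma1 to Psma7, the structural β genes Psmb1 to Psmb4 and the catalytic β genes Psmb5, Psmb6 and Psmb7. Another 17 were cap subunits: the base ATPases Psmc1 to Psmc6, the base non-ATPases Psmd1, Psmd2 and Psmd4, and the lid genes Psmd3, Psmd6, Psmd7, Psmd8, Psmd11, Psmd12, Psmd13 and Psmd14. The remaining 6 met the symbol rule and were counted as members, but in neither particle. Of these, Psmd5, Psmd9 and Psmd10 encode chaperones of base assembly that are absent from the finished particle, Psmc3ip encodes a meiotic recombination factor, and Psma8 and Psmb11 encode core subunits known from testis and thymus. Psma8 and Psmb11 did not pass the filter on low values, and 35 members were tested.

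Promoter sequence was taken from RefSeq (GRCm38.p6) for 30 of the 37 symbols, which had 32 promoters. The stretches of 250 bases before the transcription start are shown for the catalytic subunits and for the 3 members with the largest fitted difference between the groups, Psma4, Psmc3ip and Psmb3, since the values of these genes are given in full. Psmb7 had no entry. Capitals mark each match, on either strand, to TGACNNNGC, the central letters of the antioxidant response element, or to CCAAT, the box bound by NF-Y. The windows are chr14:54617996-54618245 on the minus strand for Psmb5, chr11:70525107-70525356 on the plus strand for Psmb6, chr9:54950609-54950858 on the plus strand for Psma4, chr11:101095436-101095685 on the minus strand for Psmc3ip and chr11:97703184-97703433 on the plus strand for Psmb3, each printed 5′ to 3′ toward the gene.
Psmb5: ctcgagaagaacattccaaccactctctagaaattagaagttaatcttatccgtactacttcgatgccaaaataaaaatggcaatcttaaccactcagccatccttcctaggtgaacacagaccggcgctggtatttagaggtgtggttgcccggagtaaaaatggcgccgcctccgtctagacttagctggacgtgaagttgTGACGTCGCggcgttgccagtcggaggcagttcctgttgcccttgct
Psmb6: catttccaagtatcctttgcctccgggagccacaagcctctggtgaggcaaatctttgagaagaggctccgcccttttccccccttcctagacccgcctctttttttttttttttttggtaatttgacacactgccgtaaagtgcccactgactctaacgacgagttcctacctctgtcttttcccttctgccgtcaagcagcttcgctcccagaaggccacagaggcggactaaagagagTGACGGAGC
Psma4: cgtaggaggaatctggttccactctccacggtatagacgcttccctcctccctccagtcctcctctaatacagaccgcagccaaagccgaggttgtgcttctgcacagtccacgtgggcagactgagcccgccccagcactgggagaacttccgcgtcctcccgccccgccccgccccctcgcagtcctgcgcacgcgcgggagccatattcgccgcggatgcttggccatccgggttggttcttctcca
Psmc3ip: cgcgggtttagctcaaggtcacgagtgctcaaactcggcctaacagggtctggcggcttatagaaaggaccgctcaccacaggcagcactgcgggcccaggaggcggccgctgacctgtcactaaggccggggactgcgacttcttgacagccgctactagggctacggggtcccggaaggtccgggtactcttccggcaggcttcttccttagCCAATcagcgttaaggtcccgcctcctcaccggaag
Psmb3: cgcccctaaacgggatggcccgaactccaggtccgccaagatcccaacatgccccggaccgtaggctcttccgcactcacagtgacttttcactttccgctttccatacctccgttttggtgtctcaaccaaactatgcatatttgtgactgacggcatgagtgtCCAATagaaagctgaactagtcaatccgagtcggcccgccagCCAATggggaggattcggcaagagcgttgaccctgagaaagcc

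In the promoter of Psmb5 the element TGACGTCGC lay at positions -47 to -39 from the start, and in that of Psmb6 the element TGACGGAGC lay at -9 to -1. The promoter of Psma4 held neither motif, that of Psmb3 held CCAAT at -85 to -81 and at -43 to -39, and that of Psmc3ip held it at -36 to -32. Over the members' 32 promoters, TGACNNNGC was found on either strand in 5 (15.6%), those of Psmb5, Psmb6, Psmc6, Psmd9 and Psmd12, against 3338 of all 32851 promoters (10.2%). CCAAT was found in 13 of the members' promoters (40.6%) against 33.8% of all. It was found in 6 of 12 core promoters and in 4 of 15 cap promoters. The GC box GGGCGG, the site of the Sp1 family, was found in 17 of the members' promoters (53.1%) against 32.7% of all, in 41.7% of core and 60.0% of cap promoters. These are matches of letters within the window and were not tested as binding sites.

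The samples held 16078675 to 19137059 reads on genes, HE3 the fewest. At this depth 1 read on a transcript of 1 kb was worth 0.0523 to 0.0622 RPKM (reads divided by gene length and by sequencing depth), and each of the 35 tested members had at least 307 reads in every sample. Across all 13952 genes tested, the median log2 difference from the NC mean was -0.173 in HE3 and within 0.022 of 0 in the other 5 samples. HE3 also had the lowest level of the stem cell factor Sox2, 97.3 RPKM. The other HE samples had 172 and 176, and NC had 196 to 209. Of the other neural progenitor genes, Hes5 and Prom1 were also lowest in HE3. Nes and Fabp7 were highest there, at 247 and 2383 RPKM. Values that leaving out HE3 moved by over 1.5 times are therefore given with and without it.

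Proteasome mRNAs took a larger share of the reads in every HE sample than in any NC sample. The 37 members held 0.461%, 0.474% and 0.473% of the reads in NC1, NC2 and NC3, and 0.530%, 0.521% and 0.724% in HE1, HE2 and HE3. The mean was 0.469% ± 0.00699 (SD, n = 3) in NC and 0.592% ± 0.115 (SD, n = 3) in HE. Without HE3 the HE mean was 0.526%, which lowers the difference from 0.122 to 0.0563 percentage points. HE3 stood furthest from NC, and HE1 and HE2 lay close together between it and the controls. In bulk RNA a change in the number of cells of a type and a change of RNA per cell cannot be told apart.

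Differences were fitted with limma on log2(RPKM + 0.1), and a gene was called at an absolute log2 fold change of at least 1 with a Benjamini-Hochberg adjusted p under 0.05. None of the 35 tested members was called, and none of all 13952 genes was (0.0%). With the same cutoffs but with DESeq2, which was not run here, the paper reported differentially expressed mRNAs in both directions. The absence of calls therefore belongs to the limma fit and differs from the paper's result. The members' adjusted p in limma ran from 0.195 to 0.929. At an unadjusted p under 0.05, 14 members were higher in HE, where 8.68% of all genes were, and 0 were lower, where 11.8% of all genes were. In 24 of the 35 members all HE samples exceeded all NC samples, which held for 14.8% of all genes. No member had all HE samples below all NC samples, which held for 2493 of all 13952 genes. The fitted log2 fold change of HE against NC was above 0 in 33 of 35 members, with a median of 0.33 and a range from -0.08 to 0.83, while the median over all genes was -0.06. Most members thus had modestly higher levels in HE, and no single member passed the adjusted test. Of 14 fits in all, limma's voom on the reads with sample quality weights was the exception and called 1 member, Psma4, at a log2 fold change of 1.03 (adjusted p = 0.0483). The count of 14 members at an unadjusted p was 3 without NC1, 9 without NC2 and 8 without NC3, and the share over all genes was lower in these fits too, at 4.39%, 4.78% and 6.75%.

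HE3 was the highest of the 6 samples in 28 of 35 members. Without it, the members' median log2 fold change was 0.22, against 0.00 over all genes. Then 12 members had an unadjusted limma p under 0.05 with higher values in HE, where 9.35% of all genes did. HE1 and HE2 both exceeded every NC sample in 24 members, where 20.6% of all genes showed that order. Scaling by median-of-ratios size factors in place of the read total moved the median of all genes from -0.06 to 0.00 and that of the members from 0.33 to 0.40, with 11 members at an unadjusted p under 0.05 and higher in HE, where 9.38% of all genes were. The heat map of the members shows this pattern sample by sample.

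**Figure D1:**
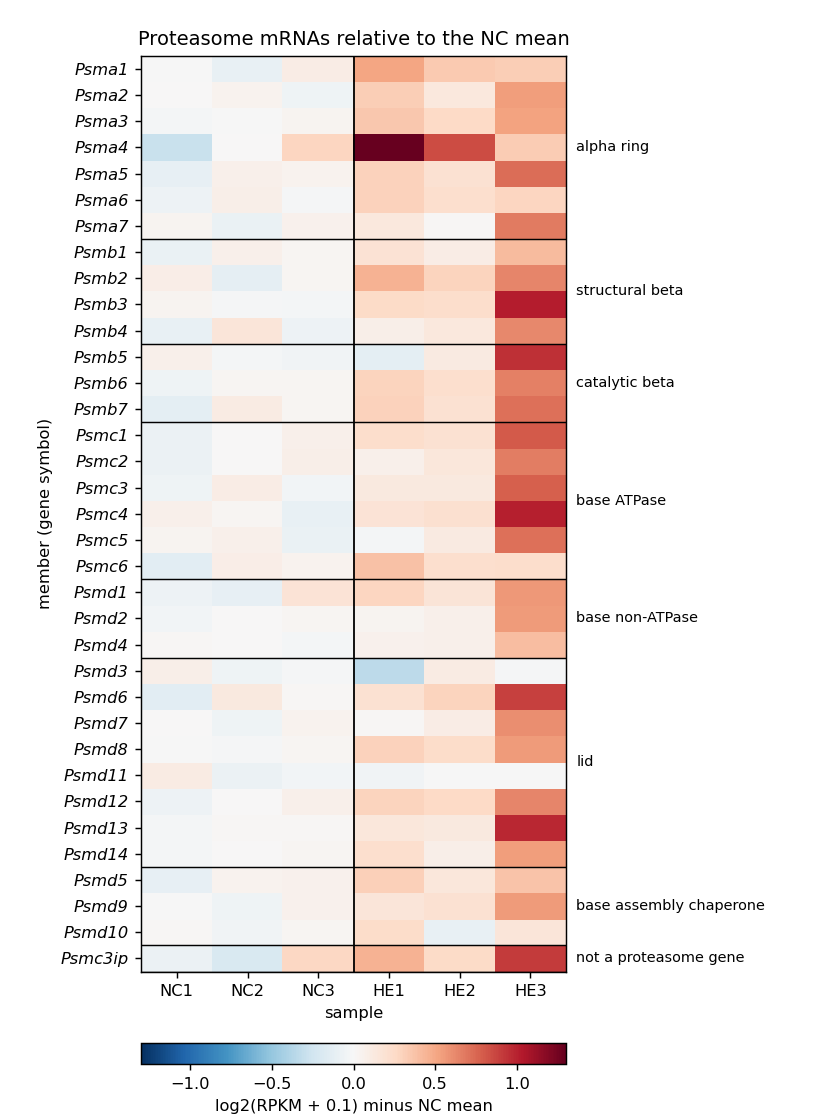
Each row is a tested member, grouped by role, and each column a sample; the color gives log2(RPKM + 0.1) minus the mean of the 3 NC samples. HE3 was the highest sample in 28 of the 35 rows, and Psma4 was the row in which HE1 stood furthest above NC.

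The α ring had higher levels in HE in all 7 of its genes, with 0.38 as the median of their log2 fold changes. At an unadjusted limma p under 0.05, 6 of them were higher, where 8.68% of all genes were. The α ring was also the ring least tied to HE3, which was the highest sample in 4 of the 7, and its median was 0.26 without HE3. Psma4 differed most of all members. Its RPKM was 10.5, 12.9 and 15.6 in NC1, NC2 and NC3 and 31.9, 23.1 and 16.1 in HE1, HE2 and HE3. The HE samples were all above NC, but HE3 only just so, and NC3 was close behind it. The log2 fold change was 0.83 (SE 0.26; limma unadjusted p = 0.0153, adjusted p = 0.195), and 1.08 without HE3. Psma4 thus had its largest excess in HE1 and its smallest in HE3, an order that Psma1 shared.

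Psma6 had the smallest difference in the α ring. Its RPKM was 74.0, 81.7 and 76.5 in NC and 94.9, 90.0 and 93.9 in HE1, HE2 and HE3, which gave a log2 fold change of 0.26 (SE 0.10; limma adjusted p = 0.219), and 0.26 without HE3. The groups were apart and the HE samples lay close together. Psma1, at 24.1, 22.7 and 26.0 RPKM in NC and 34.7, 30.7 and 30.3 in HE, had the log2 fold change 0.39 (SE 0.11; limma adjusted p = 0.195) and 0.43 without HE3. Psma7 was the only α gene whose groups overlapped, since HE2 at 85.0 RPKM lay below NC1 at 86.2 and NC3 at 87.3, and its log2 fold change was 0.28, or 0.08 without HE3. The other 3, Psma2, Psma3 and Psma5, had log2 fold changes of 0.33, 0.38 and 0.41, with every HE value above NC, and 0.23, 0.31 and 0.25 without HE3.

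Over the 4 structural β genes the log2 fold changes had a median of 0.37, which was 0.19 without HE3, and HE3 was the highest sample in each of them. Psmb2 was at 88.2, 76.6 and 84.2 RPKM in NC and at 113, 102 and 128 in HE1, HE2 and HE3. Its log2 fold change was 0.46 (SE 0.13; limma unadjusted p = 0.00808, adjusted p = 0.195), the lowest p of any member. Its HE samples were all well above NC, and the value was 0.37 without HE3. Psmb3 was at 73.6, 71.2 and 70.5 RPKM in NC, at 85.1 and 83.8 in HE1 and HE2, and at 146 in HE3. That gave a log2 fold change of 0.50 (SE 0.22; limma adjusted p = 0.248), the second largest of the core, and 0.24 without HE3. For Psmb3 the groups were apart in either case, but HE3 set much of the difference's size.

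Psmb1, with the highest level of any member, was at 202, 225 and 218 RPKM in NC and at 245, 230 and 286 in HE. Its log2 fold change of 0.23 (SE 0.13; limma adjusted p = 0.322) was the smallest in the core, and was 0.14 without HE3. Psmb4 had a log2 fold change of 0.28 with overlapping groups, since HE1 and HE2 lay below NC2, and was at 0.11 without HE3.

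The 3 catalytic subunits did not share a pattern across the HE samples. Psmb5, which carries the chymotrypsin-like activity, was at 80.5, 75.2 and 74.2 RPKM in NC, and at 70.2, 83.3 and 148 in HE1, HE2 and HE3. HE1 was the lowest of the 6 samples and HE3 the highest, at 1.93 times the NC mean. The log2 fold change was 0.31 (SE 0.26; limma adjusted p = 0.476) with all 6 samples and -0.0029 without HE3, so that no difference was left in Psmb5 without that library. Psmb6, which carries the caspase-like activity, was at 156, 165 and 165 RPKM in NC and at 198, 189 and 254 in HE, a log2 fold change of 0.39 (SE 0.14; limma adjusted p = 0.217) and of 0.26 without HE3. Psmb7, which carries the trypsin-like activity, was at 17.3, 20.4 and 19.3 RPKM in NC and at 23.3, 21.8 and 31.1 in HE, a log2 fold change of 0.40 (SE 0.16; limma adjusted p = 0.226) and of 0.25 without HE3. In Psmb6 and Psmb7 the HE samples were all above NC, and HE1 and HE2 lay nearer to NC than HE3 did. The antioxidant response element letters printed above were found before both Psmb5 and Psmb6.

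In the cap, the log2 fold changes of the 6 base ATPases had a median of 0.32, which was 0.16 without HE3. Of these genes 1, Psmc6, passed an unadjusted limma p of 0.05, where 8.68% of all genes were higher at that p. HE3 was the highest sample in the other 5. Psmc4 had the largest difference among cap subunits. It was at 79.8, 77.4 and 70.9 RPKM in NC, at 86.1 and 87.5 in HE1 and HE2, and at 153 in HE3. The log2 fold change was 0.47 (SE 0.23; limma adjusted p = 0.275), and 0.19 without HE3. HE1 and HE2 exceeded NC1 by little, and HE3 was at 2.02 times the NC mean. Psmc6 had the reverse shape, with 24.4, 28.6 and 27.7 RPKM in NC and 34.9, 31.3 and 31.5 in HE, and a log2 fold change of 0.28 (SE 0.11; limma unadjusted p = 0.0386, adjusted p = 0.229) that was 0.30 without HE3. Psmc1, Psmc2, Psmc3 and Psmc5 had log2 fold changes of 0.41, 0.30, 0.34 and 0.27, and the groups of Psmc2 and Psmc5 overlapped. Without HE3 these were 0.22, 0.11, 0.13 and 0.05.

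The 3 base non-ATPases had the smallest median of the roles within the particles, 0.22, and 0.06 without HE3. Psmd1 and Psmd2, the scaffold subunits of the base, had log2 fold changes of 0.33 and 0.22, and the ubiquitin receptor Psmd4 had 0.17. Without HE3 these were 0.22, 0.05 and 0.06. None of the 3 passed an unadjusted p of 0.05, and the groups of Psmd1 overlapped.

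The lid had both the members that lay below 0 and several that were as high as the core. Psmd3, a structural subunit of the lid, was at 33.8, 30.7 and 31.6 RPKM in NC and at 25.3, 34.4 and 31.6 in HE1, HE2 and HE3. Its log2 fold change was -0.08 (SE 0.14; limma adjusted p = 0.72), and HE1 was the lowest of the 6 samples and HE2 the highest. Without HE1 it was 0.04. Psmd11, also a structural lid subunit and the lowest in level of all particle subunits, was at 10.6, 9.33 and 9.60 RPKM in NC and at 9.52, 9.81 and 9.76 in HE. Its log2 fold change was -0.02 (SE 0.11; limma adjusted p = 0.929), and NC1 was the highest sample. Without NC1 it was 0.03, and with median-of-ratios scaling 0.04. In both genes the groups overlapped, and HE3, so high in most members, lay within the range of NC.

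At the other end of the lid, Psmd6 was at 22.1, 26.6 and 24.6 RPKM in NC and at 28.1, 29.8 and 45.03 in HE, with the log2 fold change 0.46 (SE 0.19; limma adjusted p = 0.241) and 0.25 without HE3. Psmd8 was at 61.0, 60.5 and 62.4 RPKM in NC and at 75.5, 72.4 and 90.1 in HE, with 0.36 (SE 0.12; limma adjusted p = 0.195) and 0.27 without HE3. In both the HE samples were all above NC, and Psmd8 had NC samples that were close together. Psmd12 and Psmd13 had log2 fold changes of 0.39 and 0.42 with groups that did not overlap, the second being 0.14 without HE3. The deubiquitinase Psmd14 had 0.28, with 0.15 without HE3, and Psmd7 had 0.24 with overlapping groups, with 0.06 without HE3.

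**Figure D2:**
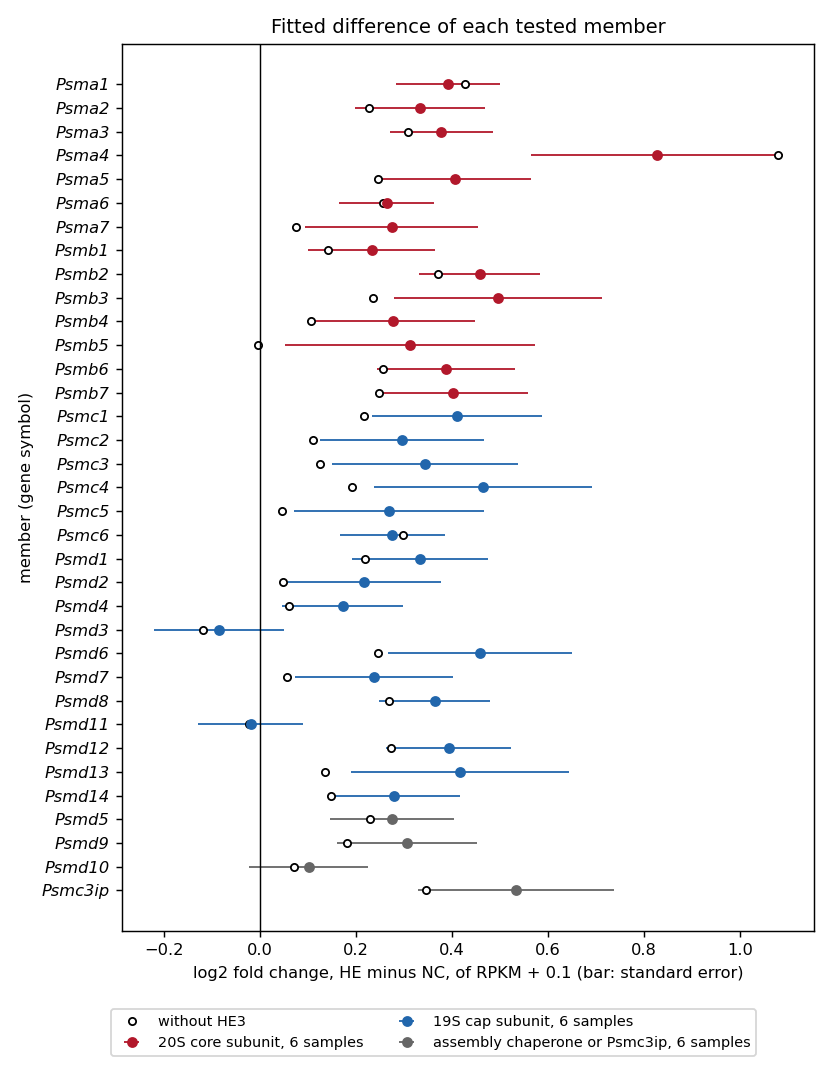
The horizontal axis is the fitted log2 fold change of HE against NC for each of the 35 tested members, with filled points and standard error bars from all 6 samples and open points from the fit without HE3. Of the filled points 33 lie above 0, Psma4 at 0.83 is the farthest right and moves to 1.08 without HE3, and Psmb5 moves from 0.31 to -0.0029.

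The members that are in neither particle were not set apart from the subunits by their direction. The chaperone genes Psmd5 and Psmd9 were at 4.96, 5.54 and 5.56 and at 6.15, 5.92 and 6.39 RPKM in NC, and at 6.64, 5.95 and 6.92 and at 6.89, 7.10 and 9.09 in HE. Every HE value was above NC in both, with log2 fold changes of 0.28 and 0.31, or 0.23 and 0.18 without HE3. Psmd10, which also has a known role outside the proteasome as the protein gankyrin, was at 11.9, 11.4 and 11.9 RPKM in NC and at 13.9, 11.0 and 13.1 in HE, a log2 fold change of 0.10 with overlapping groups. Psmc3ip was at 11.0, 10.2 and 14.1 RPKM in NC and at 15.9, 13.8 and 21.9 in HE, with a log2 fold change of 0.53 (SE 0.20; limma adjusted p = 0.221), the second largest of all members, and 0.35 without HE3. Its groups overlapped through NC3 and HE2. Psma8 was at 0.0944, 0.0617 and 0.0312 RPKM in NC and 0.132, 0.155 and 0.0367 in HE, or 1 to 5 reads, and Psmb11 had 0 to 2 reads in any sample. Neither could be compared at this depth.

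The core and the cap were then compared, as a description without a test, since the genes of a particle share their samples. The core's log2 fold changes ranged from 0.23 to 0.83 around a median of 0.38, and those of the cap from -0.08 to 0.47 around 0.30. All 14 core subunits were above 0 and 15 of 17 cap subunits were. In 11 of 14 core subunits and 11 of 17 cap subunits every HE value was above NC, which held for 14.8% of all genes. An unadjusted limma p under 0.05 was found in 9 of 14 and 4 of 17, where 8.68% of all genes were higher at that p. Without HE3 the medians were 0.25 and 0.14. Then 9 core and 3 cap subunits were higher at an unadjusted limma p under 0.05, where 9.35% of all genes were. So the core stood somewhat higher than the cap by median and by count, and each of the core's 14 log2 fold changes was above 0 with all 6 samples.

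Sample by sample the distance between the particles was not the same. The core's median log2 difference from the NC mean was -0.04, 0.02 and 0.02 in NC1, NC2 and NC3 and 0.30, 0.21 and 0.63 in HE1, HE2 and HE3. The cap's was -0.03, 0.00 and 0.02 in NC and 0.15, 0.12 and 0.60 in HE. The core's median thus exceeded the cap's by 0.15 in HE1, 0.08 in HE2 and 0.02 in HE3, against -0.01, 0.01 and 0.00 in NC. HE1 and HE2, with modestly higher proteasome mRNA, had the core ahead, and HE3, with the highest, had both particles at nearly the same height. The fitted core median exceeded the cap median by 0.09 with all samples, by 0.02 without HE1 and by 0.11 without HE3.

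Levels gave a different order for HE3. The ratio of the core's median RPKM to the cap's was 2.06, 2.00 and 2.06 in NC and 2.18, 2.08 and 1.77 in HE1, HE2 and HE3. The ratio of summed RPKM was 1.15, 1.17 and 1.17 in NC and 1.28, 1.20 and 1.13 in HE. HE1 and HE2 were above each NC sample by either ratio, and HE3 was below each of them. Summed over each particle, the HE mean was 1.29 times the NC mean for the core and 1.26 times for the cap. Within the cap, HE3 was highest for the base ATPases, with a median log2 difference from the NC mean of 0.75, against 0.58 for the lid and 0.56 for the base non-ATPases. Within the core it was 0.52 for the α ring, 0.63 for the structural β genes and 0.71 for the catalytic β genes.

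**Figure D3:**
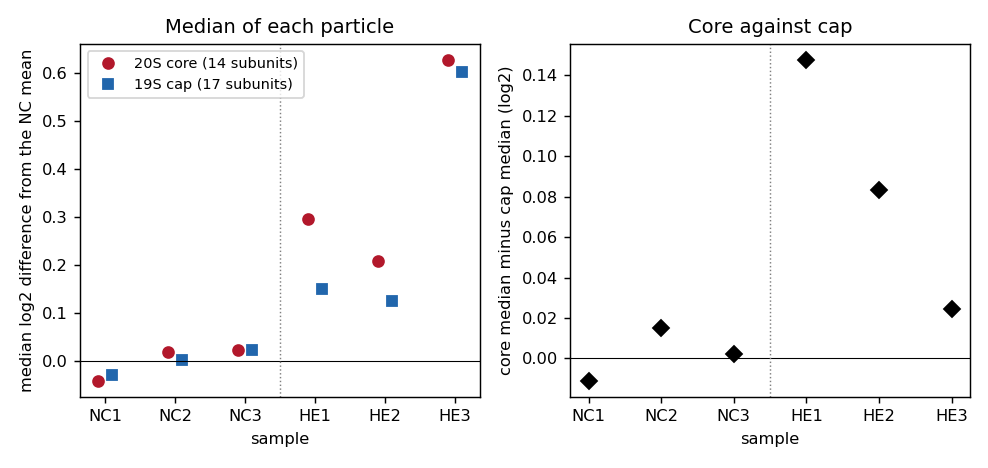
On the left, the vertical axis is the median log2 difference from the NC mean over the 14 core subunits (circles) and the 17 cap subunits (squares) in each of the 6 samples; on the right, it is the first minus the second. The core lies above the cap by 0.15 in HE1, 0.08 in HE2 and 0.02 in HE3, and within 0.02 of it in the NC samples.

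The subunits are built into the particle in fixed numbers, but their mRNA levels, compared per length as RPKM, were far from equal. In NC they ran from 9.83 RPKM for Psmd11 to 215 RPKM for Psmb1, a 21.9-fold range. The coefficient of variation across the core subunits was 66.5% to 72.7% over the samples, and across the cap subunits 71.9% to 77.7%. Over the 31 particle subunits the log2 of the NC level and the gene length in the deposited table, 871 to 7265 bases over all members, had a Pearson correlation of -0.61, given as a description across genes, since RPKM is itself divided by that length. The order of the levels was nearly the same in both groups, with a rank correlation of 0.985 over the 35 tested members. Of the 31 subunits, NC1 was the lowest sample in 17, NC2 in 7, NC3 in 5 and an HE sample in 2.

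**Figure D4:**
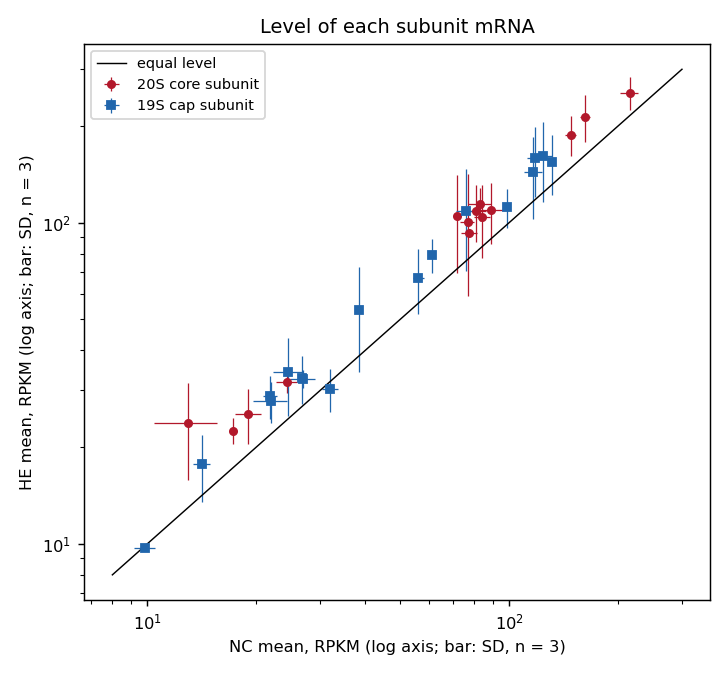
Each point is a core (circle) or cap (square) subunit, with its mean RPKM in NC on the horizontal and in HE on the vertical log axis and bars for the SD of 3 samples; the line marks equal levels. Levels run from 9.83 RPKM (Psmd11) to 215 RPKM (Psmb1) in NC, and all points but Psmd3 and Psmd11 lie above the line.

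The genes around the proteasome, 44 in 8 lists by function, did not move as a block. Of the 43 tested, 22 were higher and 21 lower in HE, and none was called. The log2 fold changes had 0.02 as their median, or -0.03 without HE3. At an unadjusted limma p under 0.05, 6 were higher, where 8.68% of all genes were, and 8 were lower, where 11.8% were. Paaf1 was not analysed here. Of the cap subunits with other symbols, Sem1 was at 56.8, 61.1 and 64.8 RPKM in NC and 77.7, 66.1 and 88.9 in HE, a log2 fold change of 0.34 with groups that did not overlap. The ubiquitin receptor Adrm1, at 22.6, 20.6 and 19.6 RPKM in NC and 19.03, 22.1 and 24.2 in HE, had 0.05 with overlapping groups, and -0.03 without HE3.

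All 5 tested assembly factors of the core had log2 fold changes above 0, with a median of 0.32, or 0.15 without HE3. Of them 2 passed an unadjusted limma p of 0.05, where 8.68% of all genes were higher at that p. Pomp, which guides β ring assembly, was at 18.2, 19.4 and 17.9 RPKM in NC and 22.1, 20.6 and 27.9 in HE, a log2 fold change of 0.33 (SE 0.14; limma adjusted p = 0.237), and 0.20 without HE3. Psmg4, a subunit of an α ring chaperone, was at 53.2, 46.7 and 51.4 RPKM in NC and 58.5, 62.1 and 74.0 in HE, a log2 fold change of 0.36 (SE 0.12; limma adjusted p = 0.206). Both had every HE value above NC. Of the 7 ubiquitin enzymes and other proteins that bind the proteasome, 3 were higher and 4 lower in HE. Their median log2 fold change was -0.05, or 0.06 without HE3. Among the 3 higher, the deubiquitinases Usp14 and Uchl5 had log2 fold changes of 0.44 and 0.52 with every HE value above NC. Usp14 was at only 2.31 to 3.96 RPKM in all samples. Zfand5, a protein known to stimulate the proteasome, was at 10.2, 16.6 and 8.26 RPKM in NC and 6.54, 6.65 and 3.91 in HE, a log2 fold change of -1.0 (SE 0.31; limma adjusted p = 0.195), and -0.75 without HE3. Every HE value of Zfand5 was below NC.

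The genes of the NRF1 pathway had the opposite sign to the subunits. Of the 7, 6 were lower in HE, where 7843 of all 13952 genes were. An unadjusted limma p under 0.05 was found in 3 of the 6, where 11.8% of all genes were lower at that p. The median log2 fold change of the 7 was -0.57, or -0.31 without HE3. Nfe2l1 itself was at 94.8, 99.4 and 85.4 RPKM in NC and at 65.7, 71.7 and 50.9 in HE1, HE2 and HE3. All HE samples were below all NC samples, with a log2 fold change of -0.58 (SE 0.15; limma unadjusted p = 0.00594, adjusted p = 0.195), and -0.44 without HE3. Mafg, a small Maf partner, was at 21.5, 16.6 and 17.8 RPKM in NC and 13.4, 13.2 and 10.9 in HE, a log2 fold change of -0.57 (SE 0.14; limma adjusted p = 0.195). Nfe2l2, which encodes NRF2, had -0.42 with overlapping groups, and Ngly1 was the gene above 0, at 0.15. HE3 had the lowest Nfe2l1 and Mafg and the highest level of 28 of the 35 tested members. These are mRNA levels, NRF1 protein was not measured here, and a link between them was not tested.

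Of the 6 genes for ubiquitin and its activating enzymes, 3 were higher and 3 lower in HE. Their median log2 fold change was -0.04, or -0.08 without HE3. Every HE value was above NC in 1 of the 6, Rps27a, which held for 14.8% of all genes. Every HE value was below NC in 2 of the 6, which held for 2493 of all 13952 genes. Rps27a, which encodes ubiquitin fused to a ribosomal protein, was at 132, 109 and 141 RPKM in NC and 170.5, 155 and 163 in HE. Its log2 fold change was 0.36 (SE 0.13; limma adjusted p = 0.214). Of the 8 genes for shuttle receptors and p97, 6 were higher and 2 lower in HE, and none passed an unadjusted p of 0.05. Of the 5 activator and inhibitor genes, Psme1 was at 37.5, 42.5 and 20.4 RPKM in NC and 20.7, 17.5 and 18.5 in HE, so that NC1 and NC2 stood apart and NC3 lay with HE, and its log2 fold change was -0.76. Psme2, at 35.9, 49.3 and 25.1 RPKM in NC and 25.01, 23.3 and 30.2 in HE, also had NC1 and NC2 highest. Psme4, the activator PA200, was at 2.96, 3.19 and 2.80 RPKM in NC and 3.06, 3.11 and 2.44 in HE, with a log2 fold change of -0.06, or 0.05 without HE3.

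The immunoproteasome genes, whose products replace the catalytic subunits in cells exposed to interferon, had a different pattern, in which 2 NC samples stood apart. Psmb8 was at 20.6, 35.8 and 2.89 RPKM in NC and 1.90, 1.73 and 1.52 in HE, and Psmb9 at 9.42, 15.4 and 2.005 in NC and 1.89, 1.69 and 1.496 in HE. Psmb10 was at 51.1, 80.2 and 28.0 RPKM in NC and 30.3, 28.2 and 35.1 in HE. The log2 fold changes were -2.85, -1.92 and -0.64 (limma adjusted p = 0.195, 0.205 and 0.306). The ratio of Psmb8 to its constitutive counterpart Psmb5, by RPKM, was 0.256 and 0.476 in NC1 and NC2, 0.0390 in NC3, and 0.0270, 0.0207 and 0.0103 in HE. The ratio of Psmb10 to Psmb7, by RPKM, was 2.95, 3.93 and 1.45 in NC and 1.299, 1.298 and 1.13 in HE. That order rests on the deposited gene lengths, 1270 bases for Psmb10 and 3421 for Psmb7. Psmb10 had 1218, 1950 and 674 reads in NC and 689, 684 and 716 in HE. Psmb7 had 1112, 1336 and 1249 reads in NC and 1429, 1419 and 1710 in HE. By reads, Psmb10 was thus above Psmb7 in NC1 and NC2 only. The 8 interferon response genes summed to 490 and 797 RPKM in NC1 and NC2, and to 27.5 to 47.2 in the other 4 samples.

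**Figure D5:**
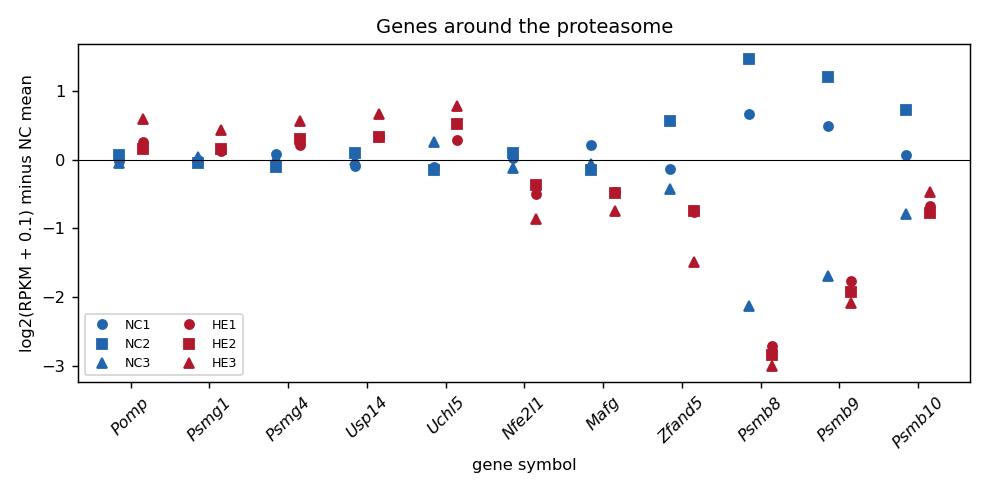
The vertical axis is log2(RPKM + 0.1) minus the NC mean for 11 genes around the proteasome, with NC in blue and HE in red and a marker shape for the replicate number. The HE samples are above NC for Pomp, Psmg1, Psmg4, Usp14 and Uchl5 and below NC for Nfe2l1, Mafg, Zfand5, Psmb8 and Psmb9, and NC1 and NC2 lie far above NC3 for Psmb8 and Psmb9.

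Other marker lists moved with the groups or with HE3. All 8 proliferation genes were higher in HE with an unadjusted limma p under 0.05, where 8.68% of all genes were. Every HE value was above NC in all 8, which held for 14.8% of all genes. Their summed level was 196 to 266 RPKM in NC and 318, 334 and 495 in HE1, HE2 and HE3. By cell assays the paper reported the opposite direction, with fewer BrdU-labeled progenitors and fewer, smaller neurospheres in HE. In the RNA-Seq profiles, its gene set enrichment analysis placed genes lower in HE in sets for dividing stem cells and proliferating neuroblasts. For cell cycle and DNA replication sets it reported differential enrichment, and its text gives no direction. Those gene sets were not tested here. mRNA levels and cell counts are unlike measures, and the difference of the 8 genes from either report was not tested. Of the 8 neural progenitor genes 7 were lower, with sums of 3060 to 3700 RPKM in NC and 2932 to 4675 in HE. Sums were 47.0 to 78.0 and 53.6 to 69.5 RPKM for 8 neuron genes, and 281 to 303 and 305 to 511 for 6 oligodendrocyte lineage genes, in NC and HE. Of the neuron genes 3 were higher and 5 lower, and of the oligodendrocyte lineage genes 2 were higher and 4 lower. The lineage sum was carried by Olig1 and Olig2, while HE3 had the lowest Sox10, 1.65 RPKM against 13.04 to 16.5 in the other samples, and the lowest Mbp, 1.79 against 11.49 to 22.2. Mesenchymal genes summed to 21.7 to 71.1 RPKM in NC and 61.9 to 141 in HE, with 5 of 5 tested higher. Microglia genes (4 of 8 tested, 3 higher) summed to 0.682 to 1.15 and 2.01 to 9.29 RPKM and endothelial genes (2 of 6 tested, both higher) to 0.898 to 1.31 and 2.54 to 3.68, so that their levels were near the floor. C1qa was at 0 in NC1 and NC2, C1qb in NC2 and NC3, and C1qc and Tyrobp in NC2. The part of these lists in the proteasome values was not tested.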

How the data were processed

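RNA enriched by oligo beads from 6 neurosphere samples, each of cells of 2 mice, was sequenced from strand-specific libraries, and the reads were aligned to mm10 with TopHat2. CASAVA 1.7 is also named in the submitters' processing notes. The authors deposited a gene table with read counts and RPKM (reads per kilobase of gene, scaled to depth). RPKM equalled the reads divided by gene length and by the reads on genes in each sample. The deposited read counts carry commas as digit separators in all 6 columns, and they served here for depth, filters and voom. The strand setting of the counting is not given in the sources used here, and pseudogene copies such as those of Psmb6 and Psmb7 could share reads.

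Of 22048 genes, 21781 IDs had a symbol. The filter on low values kept the 13952 genes that had at least 15 reads in all and that, in 3 or more samples, lay at or above the rate equal to 10 reads at the median depth. HE and NC, grouped by the sample labels, were compared with limma 3.58.1 (R 4.3.3, mean-variance trend, group only) on log2(RPKM + 0.1), with Benjamini-Hochberg adjustment over all genes tested. A gene was called at an absolute log2 fold change of at least 1 and an adjusted p under 0.05. A fold change on this scale understates the change of low genes. The sources give separate harvests but not the litters, so p-values measure the spread between these samples. The limma fit was run on simulated counts that had the same spread setting for every gene and no outlying sample. That simulation cannot show how the fit treats a sample such as HE3.

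The members, roles and gene lists were chosen with earlier results of these data known. Values in every sample were given for the catalytic subunits, for the 3 largest and 2 smallest log2 fold changes of core and of cap, for members that are not subunits, and for preset genes around the proteasome, of which 1 is not reported here. Psma1, Psma7, Psmc6 and Psmd8 were added after their values were seen. Alternatives were a pseudocount of 1, scaling by median-of-ratios size factors, a filter of 1 read in all or of 10 reads in every sample, a replicate block, voom without and with sample quality weights, and leaving out each sample.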

Additional observations from a re-analysis of the deposited data

How the results depend on the processing

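Over 14 fits, 301 of 311 values were counted as the same as the main value, 5 as moved, 4 as reversed and 1 as stronger. Part of this agreement was fixed in advance, since the other filters and the replicate block cannot change a gene's fitted log2 fold change. No member was called except under voom with sample quality weights, which gave HE3 a weight of 0.179 (other samples 0.866 to 2.24) and called 1 member, Psma4, at a log2 fold change of 1.03, among 113 genes in all. The fit without NC3 called 103 genes and no member. The number of members at an unadjusted p under 0.05 and higher in HE ranged from 3 to 16 with 1 sample left out (main value 14), while the share over all genes in these fits ranged from 4.39% to 9.35% (main value 8.68%). It was 13, 16 and 12 without HE1, HE2 and HE3, and 11 to 16 under the other settings. Why it was lower without a control was not tested. The core median minus the cap median ranged from 0.0164 to 0.110 with 1 sample left out, against 0.0869 with all; the SD within groups was 0.0445. With a sample left out, Psmb5 ranged from -0.0029 to 0.53, Psmd11 from -0.054 to 0.034 and Psmd3 from -0.179 to 0.042 in log2 fold change, and Psmd11 was 0.043 with median-of-ratios scaling; the cause was not tested. The members' median log2 fold change ran from 0.22 to 0.42, the core's from 0.25 to 0.44 and the cap's from 0.14 to 0.40.

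The cap as every Psmc and Psmd symbol, an alternative chosen after seeing the data, gave the same cap median, 0.30, and the read share without HE3 was also added then. With the replicate number as a replicate block, 14 members had an unadjusted p under 0.05 and 0 were called, as without the block. Deviations from the group mean in same-numbered samples had correlations of 0.156, 0.0869 and 0.0603 for numbers 1, 2 and 3. Each sample correlated best with its own number. Deviations within a group sum to 0 for each gene, so these correlations depend on each other and cannot decide whether samples were paired. The design does not state a pairing. Depth limits Psma8 and Psmb11 alone among the members, since the tested members had at least 307 reads in every sample.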
